A study of Oryza sativa Japonica Group with 9 samples.

Results

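The genes described here carry the rice names of 4 families that transport, transduce or answer the hormone auxin: PIN carriers, Aux/IAA repressors, auxin response factors (ARF) and GH3 enzymes. They were taken from RefSeq's gene table by symbol or synonym, as a name made of IAA, ARF, GH3, PIN, AUX or TIR and a number, with any Os prefix ignored. That rule found 69 genes: 9 PIN, 28 Aux/IAA, 23 ARF and 9 GH3. Of these, 57 had at least 1 probe set paired with them alone, out of 17905 such rice genes on the array: 5 PIN, 26 Aux/IAA, 17 ARF and 9 GH3. No gene of the table was named AUX or TIR with a number, so auxin influx carriers and TIR1 receptors are not analysed here. Each gene was represented by its probe set with the highest mean over the 9 arrays, and 11 of the 57 genes had further probe sets. For the remaining 12 genes the annotation pairs no probe set with that gene alone, and they are not analysed here: PIN1A, PIN1B, PIN1C, PIN5B, IAA11, IAA29, ARF5, ARF6, ARF8, ARF19, ARF21 and ARF25. Some genes have several names in the table, and here the numbering that gives each gene a name of its own was used, so that the gene written ARF1 (LOC4327785) is also listed as OsARF16, and ARF23 as OsARF1.

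All groups were cortical cells cut by laser from roots of the rice cultivar Nipponbare at 7 weeks, with about 2000 cells pooled per sample and 3 arrays per group. Arbusculated cells came from roots inoculated with 250 spores of the arbuscular mycorrhizal fungus Rhizophagus irregularis and held arbuscules. Systemic cells came from inoculated roots too, next to arbusculated cells but free of the fungus. Mock cells came from mock-inoculated roots. Plants of all groups were fed dilute Hoagland solution. The 3 comparisons ask what differs in a cell that houses the fungus, what differs in its fungus-free neighbour, and what differs between both cell populations of a colonised root.

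Auxin enters the nucleus and binds TIR1-type receptors, which mark Aux/IAA proteins for destruction. Aux/IAA proteins otherwise hold some of the ARF transcription factors inactive. Since ARFs also drive Aux/IAA and GH3 genes, transcripts of many Aux/IAA and GH3 genes climb within minutes of an auxin pulse. Many, though not all, PIN proteins carry auxin out of cells, and several GH3 enzymes tie it to amino acids and so take it out of action. In rice, tomato and Medicago, auxin perception is known to be needed for normal arbuscules, and auxin reporters are known to be active in cells that hold them.

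The labels of the cell populations were checked against PT11, which takes up the phosphate that an arbuscule delivers. The one of its 4 probe sets that differed most, picked after its values were seen, read 9.43, 8.91 and 8.30 in arbusculated cells, 3.55, 4.37 and 4.37 in systemic cells and 4.20, 3.87 and 3.56 in mock cells (deposited log2 values). Of the other 3 probe sets, 1 was also above both other groups in every arbusculated array, while 2, among them the one with the highest mean, were below systemic cells in every arbusculated array (-0.51 and -1.38). The array of mock replicate 2 stood apart: across probe sets it correlated on average at 0.878 with arbusculated cells but at 0.853 with its own group, and its PT11 value of 3.87 lay among those of the other mock arrays. By smaller margins, mock replicate 1 was closer to systemic cells (0.852) than to its own group (0.850), and systemic replicate 3 to mock cells (0.866 against 0.860). For values against mock, the value without mock replicate 2 is given where it turned direction, moved by over 1.5 times or changed whether the groups overlapped. Mock replicate 2 is the mock array most like arbusculated cells, so leaving it out can in itself widen arbusculated minus mock differences. The 4 markers of xylem and sclerenchyma (CESA4, CESA7, CESA9 and BC1) had a summed log2 level of 8.20 to 8.68 in arbusculated, 8.17 to 8.82 in systemic and 9.31 to 10.13 in mock cells, and 3 of the 4 were below mock in every arbusculated array (14.0% of all probe sets and 5.68% of the 17905 genes were). The 11 measured markers of dividing cells summed to 11.21 to 12.26 in arbusculated, 10.30 to 13.05 in systemic and 9.72 to 10.70 in mock cells, and 4 of the 11 were above mock in every arbusculated array (6.64% of all probe sets and 10.9% of the genes were). These 4 were all histone genes, H2B.5, H2B.6, H2B.10 and H2B.11. H2B.7, the cyclins, CDKB2-1 and QHB overlapped between arbusculated and mock cells. Summed levels of 5 endodermis and exodermis markers (10.38 to 13.14, 10.90 to 11.62 and 10.65 to 12.62 in arbusculated, systemic and mock cells), 3 phloem markers (7.96 to 9.42, 8.43 to 9.47 and 7.67 to 9.26) and 2 epidermis and root hair markers (5.00 to 6.80, 4.40 to 4.82 and 4.97 to 8.10) overlapped between arbusculated and mock cells. Against systemic cells, the arbusculated sums of the epidermis and root hair markers did not overlap and were higher, and all 5 endodermis and exodermis markers had higher arbusculated means, with a median difference of 0.55. Of the 17905 genes, 64.5% had a higher mean in arbusculated than in systemic cells. The 2 arbuscule markers, each by its probe set of highest mean, summed to 7.73 to 8.76 in arbusculated, 7.50 to 8.01 in systemic and 7.52 to 7.79 in mock cells, which overlapped. No marker can be at 0 on this log2 scale. RNA quality was read as the 3' level minus the 5' level, averaged over 7 pairs of control probe sets. It stood at 0.69 ± 0.46 in arbusculated, 0.06 ± 0.41 in systemic and 0.29 ± 0.18 in mock cells (SD, n = 3). The part of these markers, of RNA quality and of mock replicate 2 in the auxin results was not tested.

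Between arbusculated and systemic cells, 1 of the 57 auxin genes passed the test, IAA15, and it was higher in arbusculated cells (limma, adjusted p at most 0.05 over 57258 probe sets, of which 0.246% passed). In arbusculated against mock cells 0 of the 57 passed (0.187% of all probe sets did), and in systemic against mock cells 0 of the 57 passed (0% of all probe sets did). At an unadjusted p under 0.05 in limma, 9 of the 57 lay there in arbusculated against mock cells (14.2% of all probe sets), 5 in systemic against mock cells (4.34%) and 13 in arbusculated against systemic cells (23.9%). With mock replicate 2 left out these counts were 15 in arbusculated against mock cells (16.2% of all probe sets) and 13 in systemic against mock cells (4.34%), with 0 past the adjusted test in either. With all arrays, the shares of the 17905 genes, each by its probe set of highest mean, at an unadjusted p under 0.05 (limma) were as follows. They were 14.1% in arbusculated against mock, 6.09% in systemic against mock and 20.6% in arbusculated against systemic cells. Without mock replicate 2 these shares of genes were not computed, so the counts of 15 and 13 have only that of all probe sets beside them. The moderated F test over the 3 groups called IAA15 alone among the 57 (adjusted p = 0.0482, limma; 0.173% of all probe sets passed).

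Groups that did not overlap were more common than calls. Against systemic cells, 14 of the 57 genes were higher in every arbusculated array and 5 lower, where 9.39% of all probe sets were higher and 22.7% lower. Against mock cells, 9 were higher in every arbusculated array and 3 lower, where 6.64% of all probe sets were higher and 14.0% lower. Systemic cells had 1 gene above every mock array and 5 below, where 6.77% of all probe sets were above and 3.40% below. Against the 2 mock arrays that remain without mock replicate 2, 14 genes were higher and 10 lower in arbusculated cells, where 13.7% of all probe sets were higher and 22.7% lower, and 3 were higher and 11 lower in systemic cells, where 11.3% were higher and 7.46% lower. All probe sets include many that are paired with no gene. Among the 17905 genes, each by its brightest probe set as for the auxin genes, 17.4% were higher and 7.94% lower without overlap in arbusculated than in systemic cells, 10.9% higher and 5.68% lower in arbusculated than in mock cells, and 3.78% higher and 5.53% lower in systemic than in mock cells. The shares of the 57 auxin genes were 24.6% and 8.77%, 15.8% and 5.26%, and 1.75% and 8.77% for the same 3 pairs of values. Without mock replicate 2, 25.1% of the 17905 genes were higher and 10.7% lower in arbusculated than in mock cells. In systemic against mock cells these shares were 9.50% and 9.59%. The median difference of the 57 genes was 0.27 in arbusculated minus systemic cells, 0.20 in arbusculated minus mock cells and -0.06 in systemic minus mock cells. For the 17905 genes it was 0.30, 0.21 and -0.04, and for all probe sets -0.17, -0.12 and 0.07. The median of the 57 genes without mock replicate 2 was 0.09 in arbusculated minus mock cells and -0.03 in systemic minus mock cells, and that of the 17905 genes 0.26 and 0.02.

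**Figure D1:**
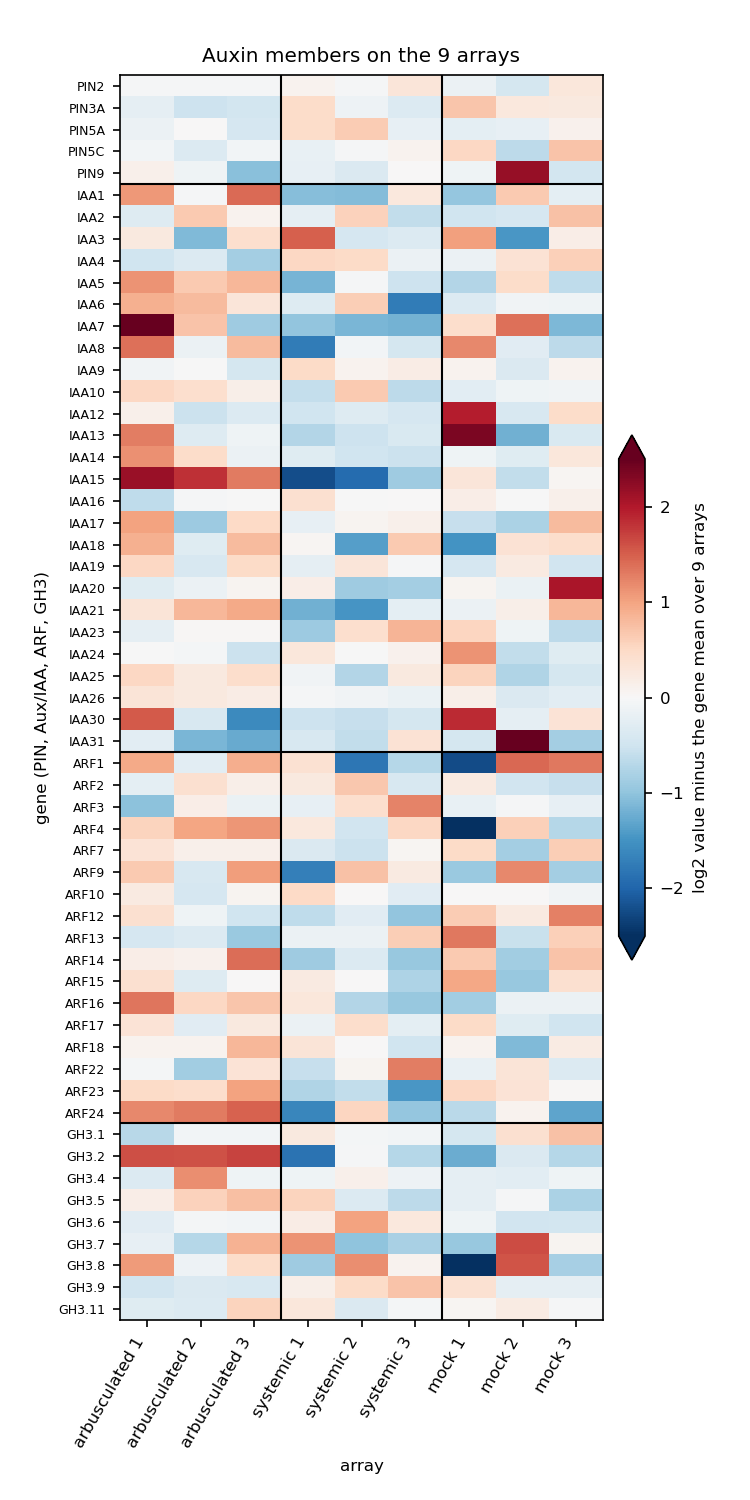
Log2 value of each of the 57 auxin genes (rows, by family) on each of the 9 arrays (columns) minus the gene's own mean over the arrays, with red above and blue below the mean and the colour saturated at 2.5. IAA15 and GH3.2 are red on all 3 arbusculated arrays, and single dark cells such as IAA31 and PIN9 in mock replicate 2 show values that rest on 1 array.

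None of the 5 measured PIN genes passed the test in any comparison (limma), and 1 of them, PIN3A, had an unadjusted p under 0.05 in arbusculated against mock cells. PIN3A (LOC4326565), also listed as OsPIN3t and OsPIN10a and a carrier of the plasma membrane, read 7.23, 6.94 and 6.99 in arbusculated cells, 7.90, 7.32 and 7.10 in systemic cells and 8.13, 7.71 and 7.70 in mock cells. All 3 arbusculated arrays lay below all 3 mock arrays, while systemic cells overlapped with both. Arbusculated minus mock cells gave -0.79 ± 0.26 (log2, SE; adjusted p = 0.303, limma, n = 3 per group), with a 95% interval from -1.38 to -0.21. Its second probe set differed by -0.09 there, so the difference was not seen in both.

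PIN9 (LOC4327533), a PIN type of monocots, read 4.51, 4.27 and 3.33 in arbusculated, 4.18, 4.03 and 4.39 in systemic and 4.27, 6.55 and 3.92 in mock cells. The value of 6.55 belongs to mock replicate 2, and the arbusculated minus mock difference of -0.88 became -0.06 without that array. PIN2 (LOC4341736), known for root gravitropism, read 3.63 on all 3 arbusculated arrays, 3.74, 3.63 and 3.96 in systemic and 3.51, 3.21 and 3.93 in mock cells. PIN5A (LOC4324368) read 3.62, 3.78 and 3.36 in arbusculated, 4.23, 4.40 and 3.57 in systemic and 3.52, 3.56 and 3.87 in mock cells. PIN5C (LOC4346116) read 2.97, 2.71 and 2.98, then 2.87, 3.02 and 3.14, then 3.56, 2.39 and 3.76 in arbusculated, systemic and mock cells. PIN5C was lowest in mock replicate 2, and without that array it differed without overlap by -0.77 between arbusculated and mock cells and by -0.65 between systemic and mock cells. PIN2, PIN5A and PIN5C had means under the first quartile of all log2 values, 4.30, where background makes up much of a probe set's signal. All 5 PIN genes were lower in arbusculated than in systemic cells by their means, with differences from -0.48 to -0.12, and all 5 had overlapping groups there.

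IAA15 (LOC4337971), an Aux/IAA repressor, read 8.04, 7.70 and 7.18 in arbusculated cells, 3.66, 3.94 and 4.98 in systemic cells and 6.18, 5.26 and 5.92 in mock cells. The 3 groups did not overlap in any pairing, with arbusculated cells on top, mock cells between and systemic cells at the bottom. No other member of the 57 had that order without overlap, which 0.220% of all probe sets had, and this was so without mock replicate 2 too (0.515%). IAA15 rose in arbusculated over systemic cells by 3.45 ± 0.41 (log2, SE; adjusted p = 0.0246, limma, n = 3 per group), which is 10.9-fold, with a 95% interval from 2.51 to 4.38 log2 units. In pooled cells, fewer cells that hold a transcript and less of it per cell cannot be told apart. It was 1.85 ± 0.41 higher in arbusculated than in mock cells (adjusted p = 0.182) and differed by -1.59 ± 0.41 between systemic and mock cells (adjusted p = 0.969), and neither passed the test.

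The size of the IAA15 difference between arbusculated and systemic cells stayed between 3.18 and 3.84 in all 21 alternative settings, and its adjusted p between 0.0151 and 0.0929. The call ended without arbusculated replicate 1 (adjusted p = 0.0906) or 2 (0.0648), mock replicate 3 (0.0542) or systemic replicate 1 (0.0748) or 2 (0.0805), and with only the 6 arrays of both groups (0.0675) or the replicate number as a block (0.0929). Without mock replicate 2 it held (adjusted p = 0.0298), at 1.59 over mock for arbusculated and -1.86 for systemic cells. The summed markers of epidermis and root hair, of endodermis and exodermis and of dividing cells and the 3' to 5' measure of RNA quality were also higher in arbusculated than in systemic cells by their means. Those of xylem and sclerenchyma and of phloem were lower. Only the epidermis and root hair sums did not overlap between these groups. The part of these measures in the IAA15 difference was not tested.

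None of the other measured Aux/IAA genes passed in any comparison (limma, with 9 unadjusted p under 0.05 among the 57 genes in arbusculated against mock cells, 5 in systemic against mock cells and 13 in arbusculated against systemic cells). IAA5 (LOC4325515) read 7.81, 7.34 and 7.52 in arbusculated, 5.54, 6.67 and 6.18 in systemic and 5.96, 7.16 and 6.06 in mock cells. Every arbusculated array was above every array of the other groups, which overlapped with each other. Its difference was 1.17 ± 0.39 against mock cells (95% interval 0.27 to 2.07; adjusted p = 0.311, limma) and 1.43 ± 0.39 against systemic cells (0.53 to 2.33; adjusted p = 0.129). In 6 genes, IAA5, IAA15, IAA26, ARF16, ARF24 and GH3.2, all arbusculated arrays lay above both other groups, which 3.60% of all probe sets showed, and without mock replicate 2 ARF4 joined them, making 7 (6.05%). IAA26 (LOC4347643) did so at a low level, with 3.38, 3.31 and 3.25 in arbusculated, 3.03, 2.97 and 2.90 in systemic and 3.21, 2.70 and 2.79 in mock cells. Shares of all probe sets can differ from those of genes. Arbusculated arrays lay above mock without overlap in 6.64% of all probe sets but in 10.9% of the 17905 genes, and below in 14.0% and 5.68%.

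IAA21 (LOC4340939) had its lowest values in systemic cells, while its arbusculated and mock arrays overlapped. It read 7.78, 8.28 and 8.41 in arbusculated, 6.26, 5.99 and 7.22 in systemic and 7.30, 7.60 and 8.29 in mock cells. It was 1.67 ± 0.39 higher in arbusculated than in systemic cells (adjusted p = 0.113, limma) and differed by -1.24 ± 0.39 between systemic and mock cells (adjusted p = 0.969). Without overlap, all systemic arrays lay below both other groups in 3 of the 57 genes, IAA15, IAA21 and ARF23, and in 1.48% of all probe sets. Leaving out mock replicate 2 made these 6 genes, with IAA14, ARF7 and ARF14 added (1.98%). For patterns over all 3 groups, shares of the 17905 genes were not computed, so such counts cannot be compared with those of genes.

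IAA7 (LOC4328796) read 6.36, 4.28 and 2.68 in arbusculated, 2.57, 2.43 and 2.37 in systemic and between 2.44 and 4.93 in mock cells. Its groups did not overlap between arbusculated and systemic cells, yet the arbusculated arrays spread so widely that the difference of 1.98 had a 95% interval from -0.07 to 4.04. IAA14 (LOC4334431) was 0.93 ± 0.33 higher in arbusculated than in systemic cells (adjusted p = 0.162, limma), and IAA13 (LOC4334069), known from a mutant with fewer lateral roots, 0.83 ± 0.83 higher (adjusted p = 0.543), again with groups that did not overlap. IAA13 in mock cells ran from 5.70 to 9.26.

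IAA4 and IAA9 had their lower values in arbusculated cells. IAA4 (LOC4327919) read 3.93, 4.08 and 3.58 in arbusculated, 4.95, 4.91 and 4.29 in systemic and 4.29, 4.79 and 5.03 in mock cells, so that all arbusculated arrays lay below both other groups. It differed by -0.84 ± 0.28 from mock cells (adjusted p = 0.311, limma) and by -0.85 ± 0.28 from systemic cells (adjusted p = 0.151). GH3.9 was the other member of the 57 with arbusculated arrays below both other groups, a pattern in 11.4% of all probe sets, and without mock replicate 2 IAA9 and ARF13 made it 4 (15.2%). IAA9 (LOC4331061) differed by -0.42 ± 0.23 between arbusculated and systemic cells (adjusted p = 0.274).

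IAA31 (LOC4352722) had the widest spread of the 57, because mock replicate 2 read 10.91 where the other mock arrays read 5.87 and 5.47. Arbusculated cells read 6.05, 5.17 and 5.05 and systemic cells 5.92, 5.71 and 6.67. Its arbusculated minus mock difference of -1.99 became -0.25 without that array. A second probe set of IAA31 did not share the peak, with 3.69 in mock replicate 2 and 7.58 in mock replicate 1. IAA10 (LOC4331149), which a rice virus is known to exploit, read 8.43, 8.33 and 8.06 in arbusculated cells, against 7.65, 7.82 and 7.83 in mock cells, which is 0.51 ± 0.34 higher in arbusculated cells (adjusted p = 0.48, limma), while systemic cells at 7.32, 8.57 and 7.27 spanned both. IAA6 (LOC4326541) was likewise above every mock array in arbusculated cells, by 0.83 ± 0.52 (adjusted p = 0.449). IAA30 (LOC4352721) read 4.26, 4.21 and 4.33 in systemic and 6.65, 4.55 and 5.11 in mock cells, without overlap, and its arbusculated arrays ran from 3.20 to 6.31. Over the family, 17 of 26 genes had a higher mean in arbusculated than in mock cells with a median difference of 0.40, 19 of 26 had a higher mean in arbusculated than in systemic cells with a median of 0.38, and 11 of 26 had a higher mean in systemic than in mock cells with a median of -0.15. The shares of the 17905 genes with a higher mean in these 3 comparisons were 62.4%, 64.5% and 46.7%. IAA17 (LOC4338160) read 9.74, 7.83 and 9.24 in arbusculated, 8.53, 8.81 and 8.86 in systemic and 8.17, 7.94 and 9.52 in mock cells, and IAA16 (LOC9272441) lay between 2.30 and 3.33 on every array, both with overlapping groups. Without mock replicate 2 the family median against mock was 0.20 for arbusculated and -0.23 for systemic cells.

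Among the 17 measured ARF genes, which encode DNA-binding factors, 0 passed in any comparison. ARF24 (LOC4352211) and ARF23 (LOC4350610) are known as partners that bind the promoter of the rice actin organiser RMD. ARF24 read 7.89, 7.98 and 8.16 in arbusculated, 5.06, 7.21 and 5.71 in systemic and 6.02, 6.78 and 5.36 in mock cells. The arbusculated arrays lay close together and above all others, while systemic and mock cells overlapped. The difference was 1.96 ± 0.55 against mock (95% interval 0.71 to 3.21; adjusted p = 0.272, limma) and 2.02 ± 0.55 against systemic cells (0.76 to 3.27; adjusted p = 0.128).

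ARF23 read 8.43, 8.38 and 8.96 in arbusculated, 7.20, 7.35 and 6.50 in systemic and 8.47, 8.30 and 7.98 in mock cells. Its low group was the systemic one, while arbusculated and mock cells overlapped. It was 1.58 ± 0.29 higher in arbusculated than in systemic cells (95% interval 0.92 to 2.24; adjusted p = 0.085, limma) and differed by -1.24 ± 0.29 between systemic and mock cells (adjusted p = 0.945). A second probe set, of the type that can cross-hybridise, differed by 0.92 between arbusculated and systemic cells (adjusted p = 0.212).

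ARF16 (LOC9270361) read 4.95, 4.14 and 4.31 in arbusculated, 3.90, 2.89 and 2.68 in systemic and 2.76, 3.49 and 3.49 in mock cells. It was above both other groups in every arbusculated array, by 1.23 ± 0.39 against mock (adjusted p = 0.297, limma) and 1.31 ± 0.39 against systemic cells (adjusted p = 0.135). ARF12 (LOC4337363), known for roles in root growth and in iron and phosphate homeostasis, read 3.99, 3.49 and 3.11 in arbusculated, 2.97, 3.32 and 2.60 in systemic and 4.23, 3.82 and 4.86 in mock cells. Systemic cells lay below mock cells without overlap, by -1.34 ± 0.35 (adjusted p = 0.969). Both genes had means under the first quartile of all values.

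ARF4 (LOC4326957) and ARF1 spread widely among the mock arrays. ARF4 read 9.73, 10.17 and 10.28 in arbusculated, 9.44, 8.69 and 9.70 in systemic and 6.33, 9.77 and 8.47 in mock cells, with the lowest value in mock replicate 1. Its arbusculated minus mock difference was 1.87 ± 0.74 (adjusted p = 0.339, limma) with overlapping groups, and 2.66 without overlap when mock replicate 2 was left out (adjusted p = 0.138). Leaving out mock replicate 1 instead would shrink this difference. ARF1 read 9.34, 8.14 and 9.31 in arbusculated, 8.78, 6.58 and 7.69 in systemic and 6.16, 9.84 and 9.71 in mock cells, again lowest in mock replicate 1. ARF14 (LOC4339313) was 1.28 ± 0.51 higher in arbusculated than in systemic cells without overlap (adjusted p = 0.183) and ARF7 (LOC4329672) 0.48 ± 0.38 (adjusted p = 0.441). ARF13 (LOC9269399) differed there by -0.68 ± 0.46 (adjusted p = 0.375). Over the family, 11 of 17 genes had a higher mean in arbusculated than in mock cells with a median of 0.34, 12 of 17 were higher than in systemic cells with a median of 0.48, and 7 of 17 were higher in systemic than in mock cells with a median of -0.06. Without mock replicate 2 the median against mock was 0.10 for arbusculated and 0.02 for systemic cells. With all arrays, 62.4% of the 17905 genes were higher in arbusculated than in mock cells. The share was 64.5% in arbusculated against systemic and 46.7% in systemic against mock cells.

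GH3.2 (LOC4326893), an enzyme that joins auxin to amino acids, read 9.24, 9.23 and 9.32 in arbusculated cells, 5.78, 7.60 and 6.91 in systemic cells and 6.39, 7.27 and 6.92 in mock cells. The arbusculated arrays lay close together (SD 0.05, n = 3) and above every array of the other groups, which overlapped with each other. The difference was 2.41 ± 0.44 against mock cells (log2, SE; 95% interval 1.41 to 3.40; adjusted p = 0.106, limma) and 2.50 ± 0.44 against systemic cells (1.51 to 3.49; adjusted p = 0.0764), or 5.30-fold and 5.66-fold, and neither passed the test over all probe sets. Against mock, its adjusted p ran from 0.0488 to 0.318 over 21 alternatives and passed when systemic replicate 1 was left out of the shared variance (0.0488). Without mock replicate 2 the difference against mock was 2.61 (adjusted p = 0.0918).

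**Figure D2:**
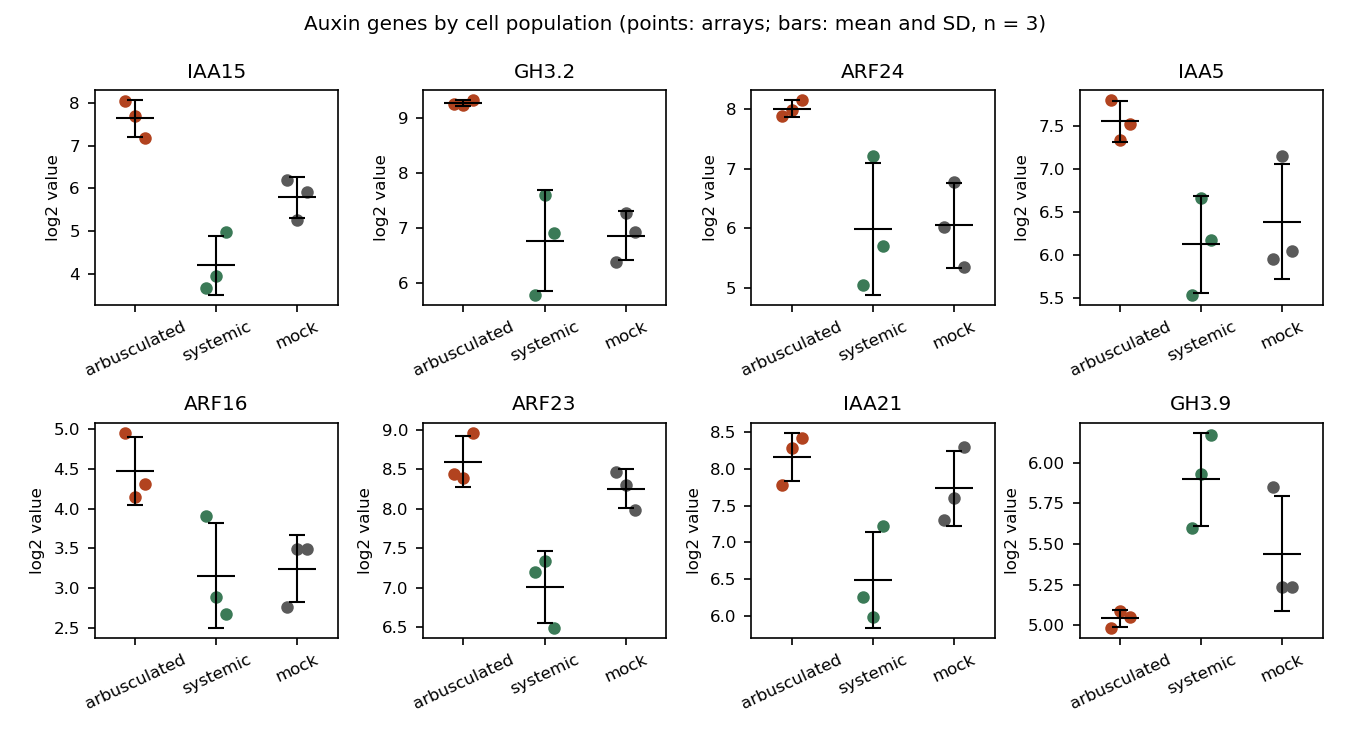
Log2 values of 8 auxin genes in arbusculated, systemic and mock cells, with a point for each array and a bar for the mean and SD (n = 3 arrays per group; the vertical axes differ and do not start at 0). IAA15 shows 3 separate groups, GH3.2, ARF24, IAA5 and ARF16 have all arbusculated points above the rest, ARF23 and IAA21 have all systemic points below the rest, and GH3.9 has all arbusculated points below the rest.

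GH3.8 (LOC4343785), a further enzyme that joins auxin to amino acids, read 9.19, 7.99 and 8.58 in arbusculated, 7.24, 9.29 and 8.22 in systemic and 5.62, 9.71 and 7.30 in mock cells. The mock arrays enclosed all others, and the difference between arbusculated and mock cells was 1.05 ± 0.95 (adjusted p = 0.59, limma). It was 2.13 without mock replicate 2, with groups that did not overlap (adjusted p = 0.248). Leaving out mock replicate 1 instead, the lowest array at 5.62, would shrink the difference. GH3.1 (LOC4327043), of the same activity, read 4.27, 4.89 and 4.89 in arbusculated, 5.20, 4.92 and 4.89 in systemic and 4.52, 5.35 and 5.68 in mock cells, so its groups overlapped.

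GH3.5 (LOC4339756) is also listed as JAR1, the enzyme that joins jasmonate to isoleucine, and so stands in this list by family and not by substrate. It read 5.66, 6.07 and 6.25 in arbusculated, 6.06, 5.15 and 4.84 in systemic and 5.28, 5.47 and 4.71 in mock cells, 0.84 ± 0.36 above mock in arbusculated cells (adjusted p = 0.348, limma) without overlap. GH3.9 (LOC4343704) read 4.98, 5.09 and 5.05 in arbusculated, 5.60, 5.93 and 6.17 in systemic and 5.85, 5.24 and 5.23 in mock cells. It differed by -0.86 ± 0.24 between arbusculated and systemic cells (adjusted p = 0.131) and arbusculated minus mock gave -0.40 ± 0.24 (adjusted p = 0.442). GH3.6 (LOC4337780) was highest in systemic cells, at 5.69, 5.92 and 5.90 in arbusculated, 6.15, 6.96 and 6.23 in systemic and 5.86, 5.49 and 5.51 in mock cells. Systemic exceeded mock cells by 0.83 ± 0.26 (adjusted p = 0.969), and arbusculated differed from systemic cells by -0.61 ± 0.26 (adjusted p = 0.202). GH3.4 (LOC4339234) read 2.91, 4.42 and 3.14 in arbusculated, 3.14, 3.39 and 3.13 in systemic and 3.03, 2.99 and 3.14 in mock cells. GH3.4, GH3.7 and GH3.11 had overlapping groups in every comparison, and their differences ran from -0.47 to 0.43. Those of GH3.7 against mock turned direction without mock replicate 2, at 0.43 for arbusculated and 0.22 for systemic cells, against -0.26 and -0.47 with it. Of the 9 GH3 genes, 5 had a higher mean in arbusculated than in mock cells with a median difference of 0.22, 6 were higher than in systemic cells with a median of 0.21, and 5 were higher in systemic than in mock cells with a median of 0.16. When mock replicate 2 was left out, 6 of the 9 were higher in arbusculated than in mock cells with a median of 0.40, and 7 were higher in systemic than in mock cells with a median of 0.22. With all arrays, 62.4% of the 17905 genes were higher in arbusculated than in mock cells. The share was 64.5% in arbusculated against systemic and 46.7% in systemic against mock cells.

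**Figure D3:**
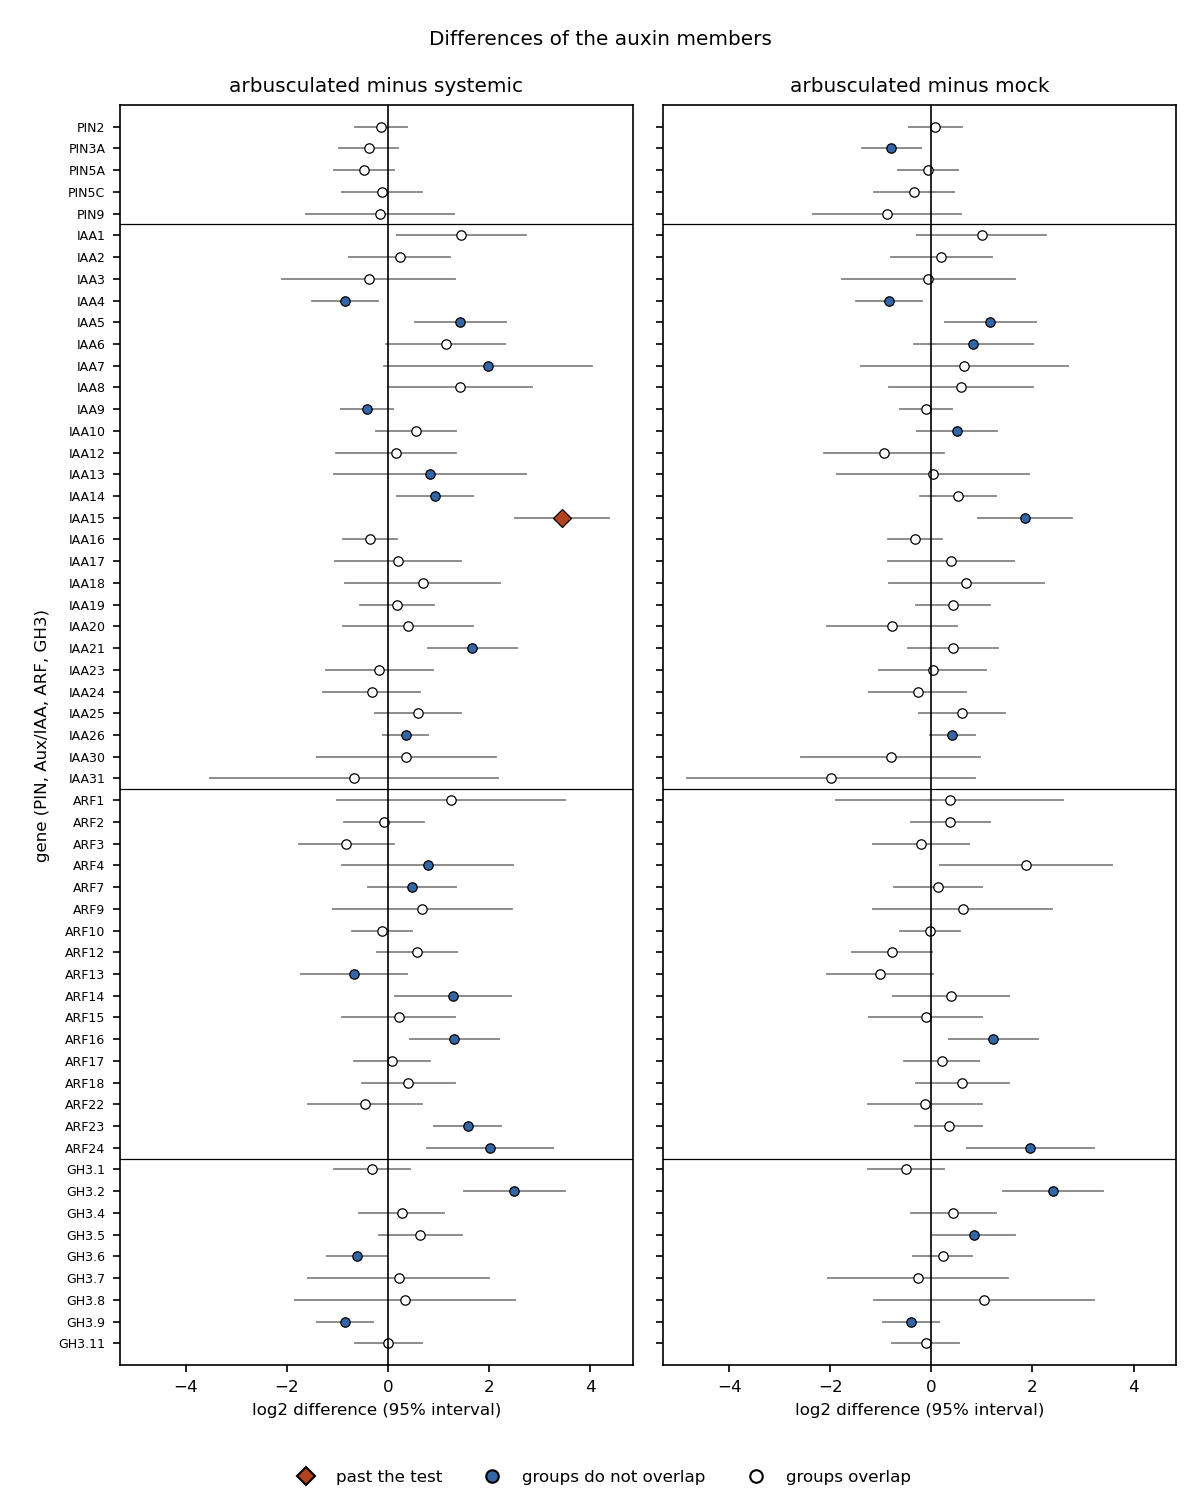
Fitted log2 differences of the 57 auxin genes with 95% intervals, for arbusculated minus systemic (left) and arbusculated minus mock cells (right), ordered by family. The red diamond is IAA15, the only gene past the test, at 3.45 on the left, and blue points are genes whose groups did not overlap. Both panels use the same arbusculated arrays.

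The precision of these differences was set by 3 arrays per group. The SE of a difference had a median of 0.41 over the 57 genes and ran from 0.20 to 1.25, so that the half-width of the 95% interval was 0.93 at the median. Within groups the moderated SD was 0.50 at the median of the auxin genes and 0.39 at the median of all probe sets. The mean of 14 of the 57 genes lay under the first quartile of all values, and IAA15 was not among them.

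The 11 genes with several probe sets gave a second reading. Between arbusculated and systemic cells, all probe sets of a gene had the same sign in 6 of the 11 genes and opposite signs in 5, which were IAA4, IAA8, IAA31, ARF2 and GH3.7. IAA8 (LOC4330571), for example, differed by 1.42 by one probe set and by -0.52 by the other, with overlapping groups in both. ARF4 was higher in arbusculated than in mock cells by 1.87 and 0.77 by its probe sets, and IAA1 (LOC4323871) by 1.00 and 0.39. The first of these for IAA1 was 1.42 without mock replicate 2, with groups that did not overlap. IAA15 and GH3.2 had 1 probe set each, so their values have no second reading.

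**Figure D4:**
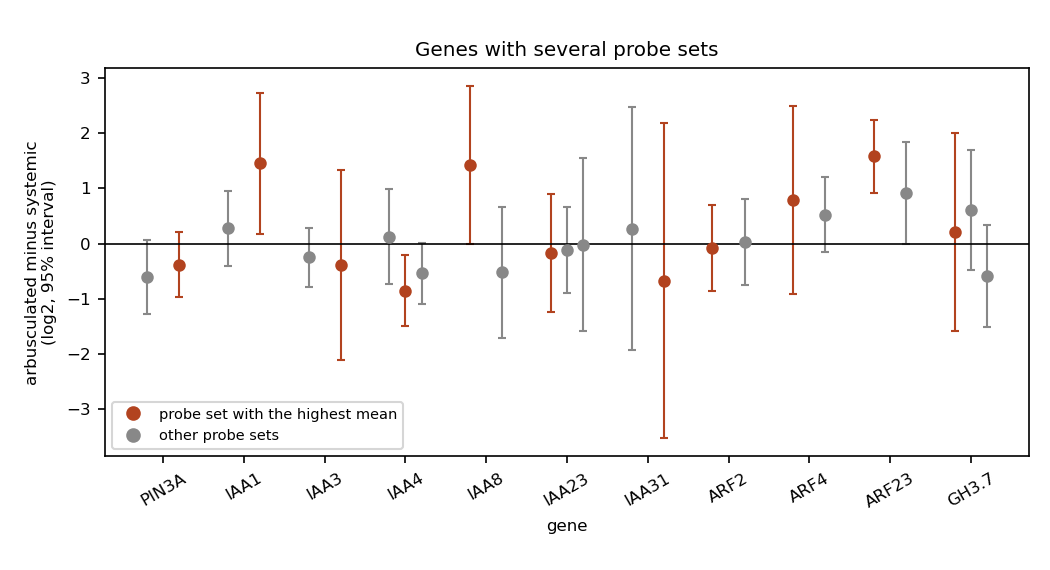
Arbusculated minus systemic log2 difference with 95% interval for each probe set of the 11 auxin genes that had several, with the probe set of the highest mean in red and the others in grey. The probe sets of ARF23 and ARF4 lie on the same side of 0, while those of IAA4 and IAA8 lie on both sides.

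The other genes of the auxin pathway, drawn from a list by name, held 17 measured members. Of these, 1 passed in arbusculated against mock cells (limma, 0.187% of all probe sets did) and 0 in systemic against mock cells (0%). In arbusculated against systemic cells 1 passed (0.246%), the same gene. The median difference over the 17 was 0.21 in arbusculated minus mock, 0.16 in systemic minus mock and 0.18 in arbusculated minus systemic cells, and without mock replicate 2 it was 0.35 in arbusculated minus mock and 0.26 in systemic minus mock cells. ILL8 (LOC4342839), an ILR1-like hydrolase that frees auxin from conjugates, read 7.71, 8.49 and 8.12 in arbusculated, 4.98, 4.81 and 4.70 in systemic and 4.98, 5.10 and 4.75 in mock cells, and rose by 3.16 against mock (adjusted p = 0.00399, limma) and 3.27 against systemic cells (adjusted p = 0.00381). Of the list of 8 genes of conjugate hydrolysis and oxidation, ILL8 was the only one to pass. ILL6 (LOC4341907) lay below both other groups in arbusculated cells, with 6.68, 6.41 and 6.30 against 7.17, 7.04 and 7.35 in systemic and 6.86, 7.17 and 7.05 in mock cells. ILL3 (LOC4334707) differed by -0.87 between arbusculated and systemic cells without overlap (adjusted p = 0.207, limma). DAO (LOC4336150), an auxin-oxidising dioxygenase, read 8.28, 7.01 and 6.80 in arbusculated, 6.90, 7.25 and 6.43 in systemic and 5.99, 6.18 and 7.15 in mock cells.

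Auxin synthesis had 2 measured genes and 0 calls. FIB (LOC4325198), the rice tryptophan aminotransferase, read 4.98, 5.57 and 4.18 in arbusculated, 4.93, 4.34 and 4.53 in systemic and 5.10, 4.25 and 4.75 in mock cells. YUCCA1 (LOC9269185), of the flavin monooxygenases of auxin synthesis, read 6.35, 5.68 and 5.58 in arbusculated, 5.68, 5.98 and 5.68 in systemic and 5.60, 5.15 and 5.45 in mock cells. TPR2 (LOC4327709), a TOPLESS-type corepressor that Aux/IAA proteins recruit, read 10.16, 8.45 and 10.07 in arbusculated, 8.11, 8.45 and 8.27 in systemic and 6.71, 9.55 and 7.20 in mock cells, and TPR3 (LOC4332285) 8.58, 6.80 and 8.91, then 7.71, 7.04 and 6.75, then 6.31, 8.57 and 7.29 in the same groups. In both corepressors mock replicate 2 was the highest mock array. SAUR39 (LOC9271092), of an early auxin-induced family, was 0.51 higher in arbusculated than in mock cells with overlapping groups, and PID (LOC4352785) and PID2 (LOC4327129), named after the kinase that in Arabidopsis steers PIN proteins, gave 0 calls, as did LBD6 (LOC4324906) and WOX11 (LOC4344325), a regulator of crown roots. LBD6 differed by -0.57 between arbusculated and mock cells without overlap (adjusted p = 0.39, limma).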

How the data were processed

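RNA of laser-captured rice root cells was measured on 9 one-colour arrays. The authors' deposited log2 values were made with RMA, per the submitters' processing notes, whose version those notes do not name. Over all probe sets these values span 1.52 to 14.06, and the array medians 5.42 to 5.54. Their number, 3 arrays per group, limits the precision. The 123 array control probe sets were left out (57258 rice probe sets kept), and probe sets were paired with genes through the platform annotation and RefSeq's gene table: 22436 with 1 gene, 95 with several and 34727 with none.

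All 9 arrays entered 1 limma fit (limma 3.58.1, R 4.3.3) with 3 contrasts and a moderated F test, with Benjamini-Hochberg adjustment over all rice probe sets in each and a threshold of 0.05. The script was tested on simulated data. Nothing in the labels links a sample to a plant, so the p-values measure the spread between these samples, which may be technical. Same-numbered samples did not deviate together (correlations -0.285 to 0.0388).

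The members and gene lists were chosen with earlier results of these data known. Named genes were every gene past the test, every PIN gene, and in each other family the 2 largest differences per direction and contrast whose groups did not overlap, plus the brightest and dimmest gene. Of the other pathway genes, up to 2 per direction and contrast past the test were named. Other genes named with values (IAA1, IAA6, IAA8, IAA10, IAA13, IAA14, IAA26, IAA30, IAA31, ARF1, ARF7, ARF14, GH3.1, GH3.7 and the pathway genes other than ILL8) were chosen after their values were seen. In the pathway and marker lists, genes that share a name but encode other proteins (SnRK1 kinases, bHLH factors and the like) were left out after the table was read. Alternatives changed the variance moderation, filter, scaling, arrays fitted, weights, replicate block, probe set and threshold, and left out each array in turn. No sequence is printed.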

Additional observations from a re-analysis of the deposited data

Results flagged for a closer look

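IAA15 differed in its place against mock cells between both cell populations of the colonised root: it was above mock in every arbusculated array and below mock in every systemic array. The difference between arbusculated and systemic cells, which is also the difference of their contrasts with mock, was 3.45 on the log2 scale (adjusted p = 0.0246, limma over 57258 probe sets, n = 3 per group), and both contrasts use the same mock arrays. Neither contrast with mock passed the test (adjusted p = 0.182 for arbusculated and 0.969 for systemic cells, limma).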

How the results depend on the processing

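The differences of genes whose groups did not overlap were run under every alternative, and none of them changed direction: 753 values kept their side of the threshold, 7 lost the call (all IAA15 between arbusculated and systemic cells) and 1 gained it (GH3.2). Other genes were not run under every alternative. Without mock replicate 2, run for all 57, the difference turned direction in 6 genes in arbusculated against mock cells (PIN2, IAA13, ARF7, ARF14, ARF22 and GH3.7) and in 15 in systemic against mock cells, among them IAA31 (0.43, against -1.32 with it) and PIN9 (0.11, against -0.71). In arbusculated against systemic cells, the count of auxin genes past the test was 1, against 3 at an adjusted p of at most 0.1 (IAA15, ARF23 and GH3.2), 0 with the 6 arrays of the comparison, 0 with the replicate block and 0 to 1 when single arrays were left out. In arbusculated against mock cells it was 0, and 0 to 1 when single arrays were left out, the 1 being GH3.2 without systemic replicate 1. In systemic against mock cells it was 0 in every alternative run. By the F test it was 1, against 0 with robust moderation, 0 with a further quantile normalisation, 0 with the replicate block and 0 to 1 when single arrays were left out. The cause of these shifts was not tested. The labels' replicate numbers are not known to pair samples. Over all probe sets the replicate block left 14 calls between arbusculated and systemic cells (141 without it), 32 between arbusculated and mock cells (107 without it) and 0 between systemic and mock cells (0 without it). Over the alternatives the median difference of the auxin genes in arbusculated against mock cells ran from 0.09 to 0.43. The median difference between arbusculated and systemic cells was 0.55 among the 27 auxin genes with brighter probe sets and -0.12 over all brighter probe sets. It was 0.30 for the 17905 genes without that filter, and was not computed for brighter genes alone. The 14 genes with means under the first quartile are limited by signal over background.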

Other observations

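Single mock arrays stood apart in several auxin genes. Mock replicate 1 read 6.16 for ARF1, 5.62 for GH3.8 and 6.33 for ARF4, each the lowest of the 9 arrays, and 9.26 for IAA13, the highest of the 9. Mock replicate 2 read 10.91 for IAA31 and 6.55 for PIN9, each the highest of the 9 arrays. IAR (LOC4324686), an auxin conjugate hydrolase by name, read 5.89, 7.38 and 6.79 in arbusculated, 5.89, 5.27 and 6.11 in systemic and 5.34, 5.90 and 5.03 in mock cells, and did not pass (adjusted p = 0.306 against mock and 0.216 against systemic cells, limma). ILL7 (LOC4342838), named like ILL8, read 7.27, 6.80 and 7.58 in arbusculated, 7.25, 7.03 and 6.71 in systemic and 6.41, 7.87 and 7.03 in mock cells, with overlapping groups in every comparison.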
